A study of Homo sapiens with 30 samples.

Results

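Toll-like receptors recognise microbial and damage-associated molecules at the surface or in the endosomes of a cell, and 10 genes of this system were followed in BEAS-2B cells that had received whole birch pollen. The genes were the receptors TLR1, TLR2, TLR3, TLR4, TLR5 and TLR6, the co-receptors CD14 and LY96, and the adaptors MYD88 and TIRAP. They were taken by name, as every probe whose gene name in the array files was one of these symbols, which gave 14 of the 58201 probes and 10 of the 43972 gene names on the array. BEAS-2B is an immortalized human bronchial epithelial cell line. The cells were kept at the air-liquid interface, 10 mg of birch pollen was dispersed over them with pressured air in a sedimentation chamber, and the control cells, called air, went through the same handling shielded from pollen. RNA was taken at 5 times, namely 10 min and 55 min after exposure, then 2h25 min, 6h50 min and finally 24 h, with 3 arrays for each exposure and time and 30 one-colour arrays in all. No group carried a genetic change or a further agent, and all 10 groups shared the cell line, the interface culture, the chamber and the air pulse.

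A Toll-like receptor that binds its ligand pairs its cytoplasmic TIR domain with adaptor proteins. MYD88, which most of these receptors use, recruits the IRAK kinases and leads to NF-kB and MAP kinase activity, and TIRAP bridges MYD88 to TLR2 and TLR4. TLR3 signals through another adaptor, TICAM1, while CD14 and LY96 help TLR4 to bind lipopolysaccharide. In airway epithelium these receptors are known as a first line of detection for inhaled particles and microbes.

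Markers of the labelled cell type were present, and so were mesenchymal ones. Of 10 epithelial genes, 9 exceeded the background well on each of the 30 arrays and the remaining one, TP63, on 21, and 6 of 7 mesenchymal genes did so on each array too. Of 8 monocyte and macrophage genes examined, 3 were well above background on every array, namely PTPRC, CSF1R and FCER1G, and CD163 on 0. TYROBP was so on 29 arrays, ITGAM on 28, AIF1 on 24 and FCGR1A on 17 of 29. The summed brightness of 10 epithelial genes, on a linear scale relative to the 75th percentile of the array, lay between 143 and 340 over the air arrays and between 158 and 320 over the pollen arrays. That of 7 monocyte genes stayed between 0.263 and 0.861. Between 44.67% and 59.32% of the probes were well above background on an array, and 0 spots were saturated. Array 1 of pollen at 55 min was printed with another design, which shared 33873 probes with the main one, and was scanned on another day.

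All levels below are log2 brightness relative to the 75th percentile of the array over the probes that both designs share. A level of 0 equals that percentile, and levels of different probes were not set against each other because probes differ in how brightly they label. A probe was tested if any group had it well above background on each of its 3 arrays. Of the 10 genes, 9 passed and 1, LY96, did not. Because that filter is met by the group in which a probe is bright, the dim genes could enter only through such a group. The 9 genes had 13 tested probes among 32142, and each gene was represented by its brightest probe, numbered 1.

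TLR2, TLR3, TLR4, MYD88 and CD14 exceeded the background well on every one of the 30 arrays, as did probe 1 of TLR5 and probe 1 of TIRAP. TLR1, which pairs with TLR2 to bind triacylated lipopeptides, was well above background on 27 arrays, and the other 3 all belonged to the 24 h groups, where 1 air array and 2 pollen arrays remained above it. TLR6, which pairs with TLR2 for diacylated lipopeptides, was well above background on 22 arrays. The second TLR5 probe was above it on 26 arrays, with 0 of 3 air arrays and 2 of 3 pollen arrays at 24 h. LY96, the protein that holds lipopolysaccharide on TLR4 and is also known as MD-2, was well above background on 8 of 30 arrays, with 0 to 2 arrays in any group. Its values lay between -8.51 and -6.22, and no fold is given for it.

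**Figure D1:**
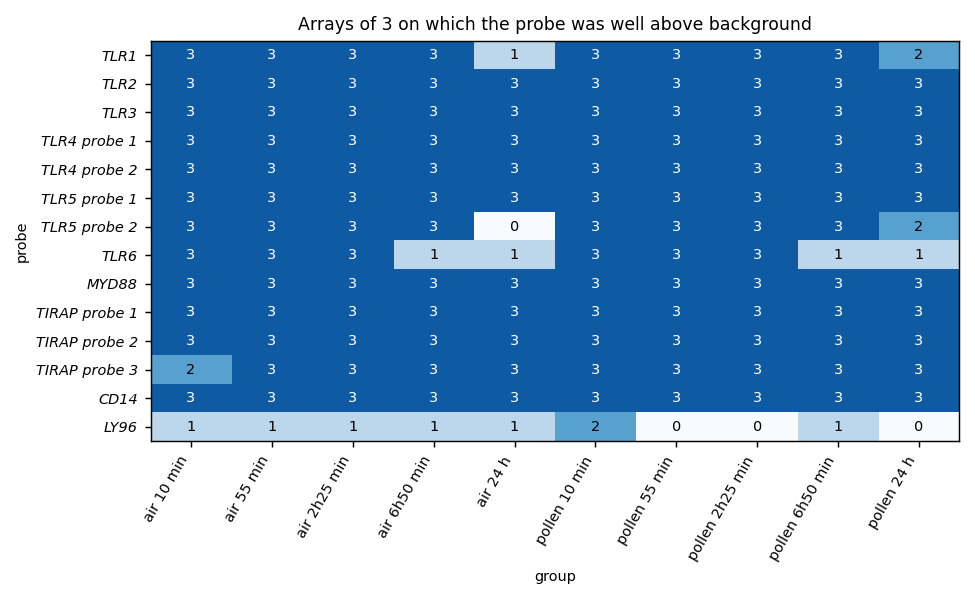
Number of arrays, out of 3, on which each of the 14 probes was well above background in each of the 10 groups of exposure and time. LY96 reached 2 arrays at most, and TLR1, TLR6 and probe 2 of TLR5 lost arrays at the later times.

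The sequences of 2 probes are given because they show what the brightness of the array was read from, in TLR3, the receptor of double-stranded RNA, and in TLR4, the receptor of lipopolysaccharide, whose second probe departed from the first. Both are copied from the array files, lie on the plus strand of hg19 and are printed 5′ to 3′ with no capitals. The TLR3 probe covers chr4:187005890-187005949 and the second TLR4 probe chr9:120476856-120476915. Exon and UTR positions were not analysed here.
TLR3 probe: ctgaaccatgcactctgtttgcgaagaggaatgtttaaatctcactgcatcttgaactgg
TLR4 probe 2: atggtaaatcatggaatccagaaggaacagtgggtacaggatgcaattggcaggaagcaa

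The bases upstream of the start are shown for TLR2 and TLR4, whose levels rose with time, and for TLR3, whose level fell. They are the 250 bases before the RefSeq start in build GRCh38.p14, all on the plus strand, and capitals mark the motif named in each case. In TLR2 (chr4:153684030-153684279) the capitals are GGACTTTCC, the letters of an NF-kB motif, which 0.333% of 35116 such windows held on either strand. In TLR3 (chr4:186068906-186069155) they are the reverse strand of GGGCGG, an Sp1 motif that 42.6% of the windows held. In TLR4 (chr9:117704153-117704402) they are the reverse strand of GAGGAAGT, a PU.1 motif that 2.17% of the windows held.
TLR2 upstream: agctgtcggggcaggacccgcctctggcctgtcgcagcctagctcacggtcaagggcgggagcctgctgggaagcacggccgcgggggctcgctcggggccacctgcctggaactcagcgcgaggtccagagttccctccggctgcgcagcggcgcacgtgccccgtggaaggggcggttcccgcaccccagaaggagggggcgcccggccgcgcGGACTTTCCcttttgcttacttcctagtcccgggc
TLR3 upstream: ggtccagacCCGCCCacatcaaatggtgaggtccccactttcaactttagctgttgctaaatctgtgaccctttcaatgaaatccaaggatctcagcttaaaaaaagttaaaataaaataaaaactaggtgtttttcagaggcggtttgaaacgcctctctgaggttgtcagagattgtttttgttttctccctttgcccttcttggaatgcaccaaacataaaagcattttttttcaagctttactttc
TLR4 upstream: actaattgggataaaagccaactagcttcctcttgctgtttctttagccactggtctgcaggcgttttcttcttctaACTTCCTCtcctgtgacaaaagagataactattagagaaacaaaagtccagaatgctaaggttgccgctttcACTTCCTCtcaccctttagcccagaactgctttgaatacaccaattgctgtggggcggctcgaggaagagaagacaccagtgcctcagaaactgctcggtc

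The NF-kB motif began at position -35 from the start of TLR2, and it was not found in the windows of the other 6 genes that had one, namely TLR3, TLR4, TLR5, TLR6, MYD88 and CD14. GGGCGG was found in TLR2, TLR3, TLR4, TLR5 and MYD88. TGANTCA, an AP-1 motif in 6.57% of the windows, was found in CD14, and the interferon-stimulated response element, present in 3.02%, in MYD88. GAGGAAGT was found at 2 places in TLR4. Both strands were searched with exact letters, no motif holds the letters of another, and a match describes the letters of the window.

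**Figure D2:**
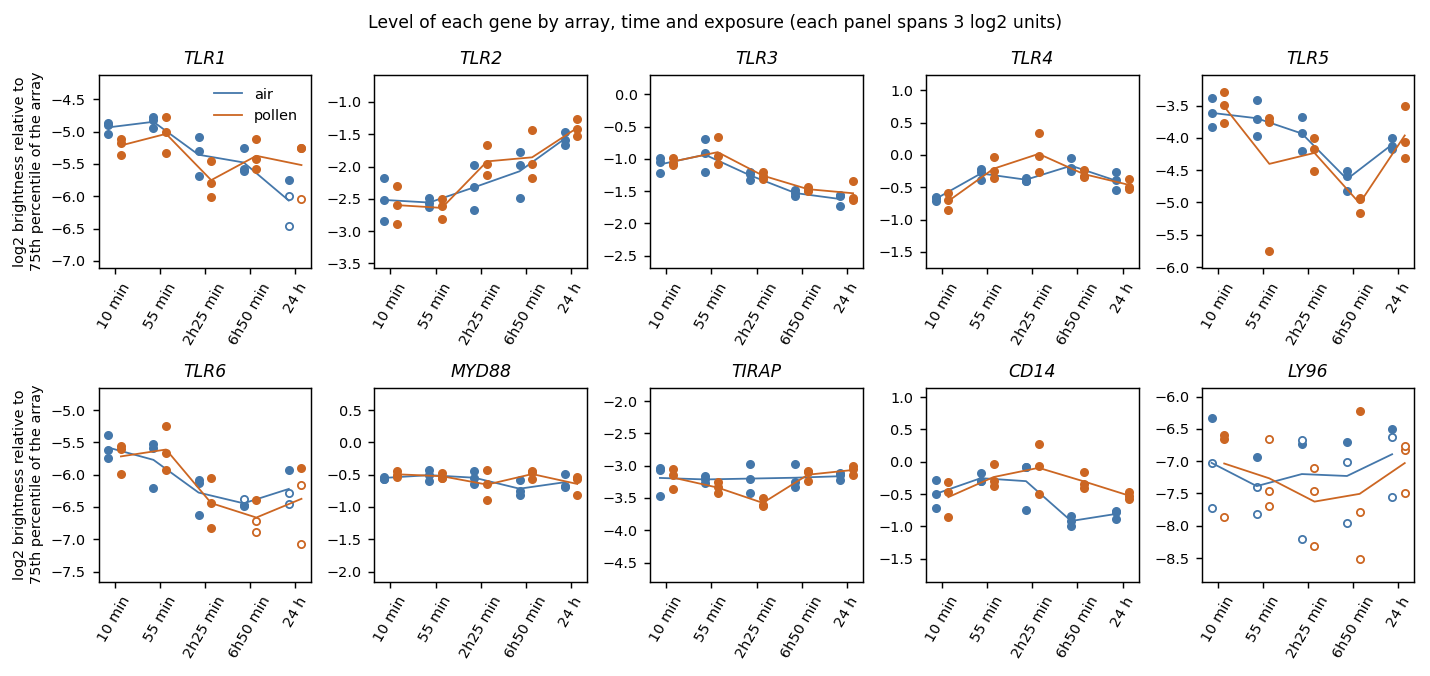
Level of each of the 10 genes on every array (log2 brightness relative to the 75th percentile of the array) against time in 5 steps, air in blue and pollen in orange, each panel spanning 3 log2 units. Filled points were well above background and open points were not, and lines join the group means. TLR2 climbs and TLR3 declines in both exposures, while the 3 pollen points of CD14 stand above the air points at 6h50 min and 24 h.

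The first question was whether pollen changed these genes relative to air at the same time. At an adjusted p of 0.05 and a change of at least 1.1-fold in limma, 0 of the 9 genes passed at any of the 5 times. Over all 32142 probes, the share that passed was 0% at 10 min, 0.00311% at 55 min, 0.0342% at 2h25 min, 0.0436% at 6h50 min and 0.00311% at 24 h. With the unadjusted limma p under 0.05, the 9 genes gave 0, 0, 2, 2 and 1 at the 5 times in that order, against 1.83%, 5.09%, 2.98%, 7.44% and 3.61% of all probes. Other settings gave a passing member only at 6h50 min, where CD14 passed in 2 of 11. These were the replicate block and array weights, under which 135 and 530 of all probes passed, against 14 in the main fit. The median difference of the 9 genes was -0.03, -0.02, -0.10, 0.06 and 0.10 in log2, against 0.01, -0.01, -0.03, 0 and 0 over all probes. The SE of these differences, the same at each time, ran from 0.10 for MYD88 to 0.34 for TLR5, so the precision differed between the genes. Per the methods, exposures were repeated independently on different days, each with its own mock control. The labels do not say which arrays shared a day, and the p-values measure the spread between these arrays.

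**Figure D3:**
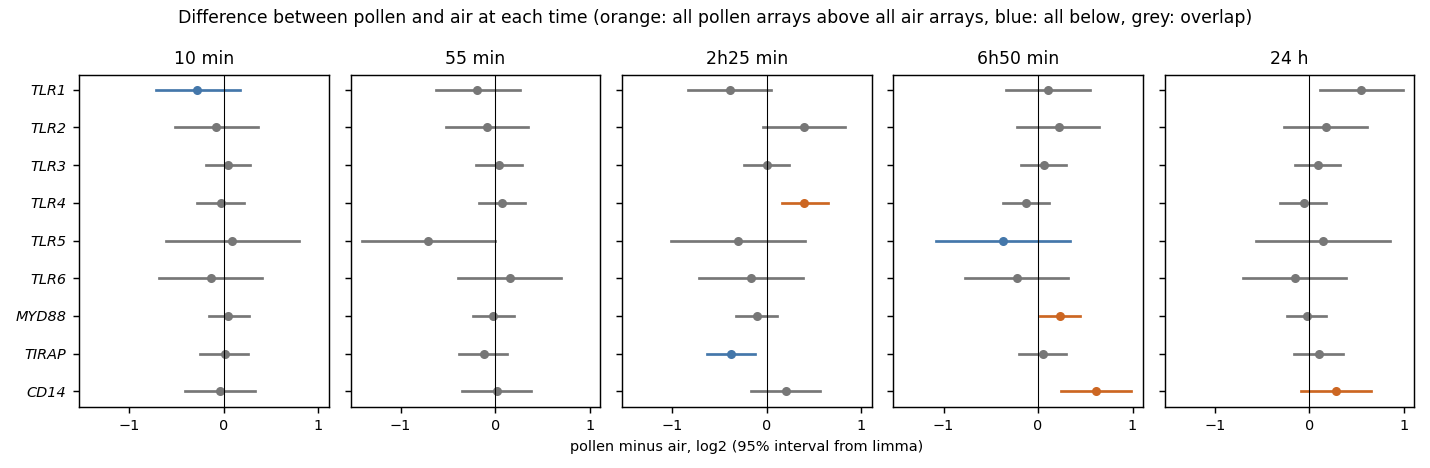
Pollen minus air for 9 genes at the 5 times, in log2, with 95% intervals from limma. Orange points have all 3 pollen arrays above all 3 air arrays, blue points all 3 below, and grey points overlap. CD14 at 6h50 min, with 0.61, is the farthest point above 0, and 7 points in all have exposures that do not overlap.

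CD14, a surface protein that hands lipopolysaccharide to TLR4 and is abundant on monocytes, showed the widest difference above 0 between pollen and air. Its probe lies at chr5:140011318-140011377 on the minus strand of hg19. At 6h50 min the air arrays read -0.99, -0.92 and -0.84 and the pollen arrays -0.40, -0.35 and -0.16. All pollen arrays lay above all air arrays. This was so for 2 of the 9 genes at this time, CD14 and MYD88, and for 6.51% of all probes. The means were -0.92 ± 0.08 and -0.30 ± 0.13 (SD, n = 3), a difference of 0.61 ± 0.18 (SE) with a 95% interval of 0.24 to 0.98, or 1.53-fold. In limma the adjusted p was 0.208 (unadjusted 0.00236), so the difference did not pass. It lay between 0.59 and 0.61 over 11 other settings. The replicate block gave an adjusted p of 0.0138 and array weights 0.0357 in limma, and the other 9 settings did not pass. Leaving out each array in turn gave 0.54 to 0.66, with adjusted p from 0.154 to 0.63 in limma.

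At 24 h the CD14 air arrays read -0.76, -0.77 and -0.89 and the pollen arrays -0.47, -0.57 and -0.53, again with no overlap. CD14 was the only one of the 9 genes with all pollen arrays higher at 24 h, where 5.33% of all probes had this order and 3.46% the opposite one, which 0 of the 9 genes had. The difference was 0.28 ± 0.18 (SE), with an interval of -0.09 to 0.65 and an adjusted p of 1 in limma. At 10 min the air arrays read -0.71, -0.50 and -0.28 and the pollen arrays -0.85, -0.47 and -0.32, which overlapped throughout. At 55 min the group means were -0.25 in air and -0.24 in pollen, and at 2h25 min -0.30 ± 0.38 and -0.09 ± 0.39, with array 1 the lowest in both exposures.

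Since CD14 marks monocytes, the summed monocyte list stands beside it. At 6h50 min that sum was 0.324 to 0.444 in air and 0.32 to 0.403 in pollen, and at 24 h 0.463 to 0.569 and 0.468 to 0.621, so the exposures overlapped at both times. The sum is weighted towards its brightest genes, and single markers differed in both directions. At 6h50 min they ran from -0.44 (TYROBP) to 0.47 (FCGR1A) in log2, pollen minus air, with ITGAM at 0.20 and AIF1 at -0.33. At 24 h CSF1R was higher in pollen by 0.65, more than CD14 itself. The other markers tested ran from -0.38 (FCGR1A) to 0.12 (TYROBP) at that time, in both directions. The part of these markers in the CD14 values was not tested. The macrophage marker CD163 was well above background on 0 arrays. In a bulk culture, more cells of a type and more RNA per cell cannot be told apart. The brightness of the area around the CD14 spot at 6h50 min was taken after each probe's median over the arrays was removed. Relative to the median of its own array in log2, it was 0.10, 0.04 and 0.02 in air and 0.05, 0.07 and 0.07 in pollen.

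TLR4 was measured by 2 probes, and both read higher in pollen at 2h25 min without passing the test. Probe 1 (chr9:120479236-120479295, plus strand) read -0.35, -0.40 and -0.40 in air and -0.02, 0.34 and -0.27 in pollen. All pollen arrays were above all air arrays, but they spread over 0.31 (SD) against 0.03 in air. TLR4 was 1 of 9 genes in this order at 2h25 min, against 2.85% of all probes. The difference was 0.40 ± 0.12 (SE), with an interval of 0.16 to 0.65, or 1.32-fold, and an adjusted p of 0.849 in limma (unadjusted 0.00262).

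Probe 2 of TLR4, whose sequence is printed above, read -1.87, -1.96 and -2.08 in air and -1.67, -1.51 and -1.77 in pollen at 2h25 min, with no overlap. Its difference was 0.32 in log2 at this time and 0.34 at 55 min, each with an adjusted p of at least 0.918 in limma. The arrays at 2h25 min came from 2 slides. On slide 2, which held 2 arrays of each exposure, the probe 1 difference was 0.54, and on slide 4, with 1 array of each, it was 0.13. At 6h50 min probe 1 read lower in pollen by -0.13 and at 24 h by -0.06, with overlapping arrays.

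TIRAP, the adaptor between MYD88 and the receptors TLR2 and TLR4, had its 3 pollen arrays below its 3 air arrays at 2h25 min. Probe 1 read -3.20, -2.98 and -3.42 in air and -3.62, -3.61 and -3.50 in pollen. It was the only member of 9 in this order, which 4.12% of all probes had. The difference was -0.38 ± 0.12 (SE), with an interval of -0.63 to -0.12, or 1.30-fold lower in pollen, and the adjusted p was 1 in limma (unadjusted 0.00523). On slide 2 it was -0.53 and on slide 4 -0.08. Over all groups the means of this probe lay between -3.58 and -3.07.

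MYD88, the adaptor shared by most receptors of the family, kept within -0.89 and -0.42 over all 30 arrays. At 6h50 min its air arrays read -0.81, -0.76 and -0.58 and its pollen arrays -0.44, -0.46 and -0.57. The arrays did not overlap, although the highest air array and the lowest pollen array nearly met. The difference was 0.23 ± 0.10 (SE), with an interval of 0.02 to 0.44, or 1.17-fold, and an adjusted p of 0.616 in limma (unadjusted 0.0355).

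The other receptors gave differences that changed sign between times or overlapped. TLR1 read -5.03, -4.87 and -4.90 in air and -5.36, -5.11 and -5.17 in pollen at 10 min, which placed all pollen arrays lower in 1 of 9 genes and in 1.96% of all probes, against 0 genes and 3.85% with all pollen arrays higher. At 24 h it read -5.75, -5.99 and -6.46 in air and -6.04, -5.25 and -5.26 in pollen, a difference of 0.55 ± 0.21 (SE) in the opposite direction, with an adjusted p of 1 in limma. These 24 h arrays overlapped, and 3 of the 6 were not well above background. TLR5, the receptor of flagellin, read -4.51, -4.82 and -4.59 in air and -4.95, -5.16 and -4.93 in pollen at 6h50 min. All pollen arrays were lower, an order that 5.21% of all probes had, and the difference was -0.37 with an adjusted p of 0.954 in limma.

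A single array set the TLR5 value at 55 min. The air arrays read -3.41, -3.71 and -3.97 and the pollen arrays -5.75, -3.70 and -3.76, where the lowest was the array of the other design. With it the difference was -0.71 ± 0.34 (SE), without it -0.03, and on slide 2 alone 0.11. TLR2, a receptor of bacterial lipoproteins, read higher in pollen at 2h25 min by 0.40 ± 0.21 (SE), from -1.97, -2.67 and -2.32 in air to -1.67, -1.96 and -2.13 in pollen. The arrays overlapped, and the adjusted p was 1 in limma. TLR3 differed between exposures by 0.09 in log2 at most, in either direction, at all 5 times. TLR6 arrays overlapped between exposures at each time. At 55 min 0 of the 9 genes, each by its probe 1, had exposures that did not overlap, against 4.73% of all probes with pollen higher and 3.94% with pollen lower. Among the further probes, TLR4 probe 2 had all pollen arrays higher and TIRAP probe 3 all of them lower at that time.

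Whether the pollen effect itself changed with time was tested as the pollen difference at a later time minus that at 10 min. In limma 0 of the 9 genes passed at any later time, and 0%, 0.00311%, 0% and 0% of all probes did at 55 min, 2h25 min, 6h50 min and 24 h. The unadjusted p was under 0.05 for 0, 2, 1 and 1 genes in that order, against 3.77%, 3.19%, 4.25% and 2.96% of all probes. These were TLR4 (0.43 in log2) and TIRAP (-0.39) at 2h25 min, CD14 (0.65 ± 0.25, SE) at 6h50 min and TLR1 (0.83) at 24 h, each with an adjusted p of 1. These contrasts all use the arrays of 10 min, so they share samples. None of the 9 genes passed in any of the other settings or with any array left out.

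The second question was how the genes changed with time in culture after the handling, taken as the mean of air and pollen against 10 min. TLR2 and TLR4 rose, TLR3 fell, TLR5 fell at 6h50 min, TLR1 and TLR6 passed as lower but close to the background, and MYD88 and CD14 passed at no time. In limma 1 of 9 genes passed at 55 min, 2 at 2h25 min, 5 at 6h50 min and 5 at 24 h. These counts include TLR6 at 6h50 min and TLR1 and TLR6 at 24 h, which entered the test through other groups, where they were brighter. The shares of all probes that passed were 3.44%, 7.73%, 59.5% and 52.9%, so that at 6h50 min and 24 h the counts of the 9 genes lay near the background of the whole array. By direction, 2.17% of all probes were higher and 1.28% lower at 55 min, where 1 gene (TLR4) was higher. At 2h25 min 3.57% were higher and 4.16% lower, against 1 gene each, TLR4 and TLR6. At 6h50 min 20.0% of all probes were higher and 39.4% lower, and at 24 h 23.6% and 29.3%. This split moved with the scaling. Of the probes that passed at 6h50 min, 33.7% were higher, and 59.7% were when the arrays were scaled by their median, with the median of all probes at -0.18 and 0.09 in log2, respectively. At 24 h the share was 44.6% and 63.8%, and the median -0.07 and 0.11.

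Time and slide were largely joined in this series. All arrays of 10 min were on slide 1 and all arrays of 6h50 min on slide 5, which was scanned on another day, so for 6h50 min time and slide cannot be told apart. All arrays of 24 h lay on slide 4 with 1 array of each exposure of 2h25 min. With slide as a block, 0 of the 9 genes passed at 55 min, 2h25 min or 24 h. Of all 32142 probes, 10, 4 and 1801 passed at these times in that setting, so few of any genes did. Values within a slide are given beside each gene tested, and the part of the slide in the changes was not tested further. The cell type markers moved with time as well. The epithelial sum was 267 to 332 in air at 10 min and 143 to 188 at 24 h, and in pollen 257 to 297 and 158 to 190. The mesenchymal sum in air was 87.9 to 139 at 10 min and 66.2 to 69.6 at 6h50 min, and the monocyte sum 0.6 to 0.679 and 0.324 to 0.444. None of these pairs of ranges overlapped, and their part in the changes of the 9 genes was not tested.

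**Figure D4:**
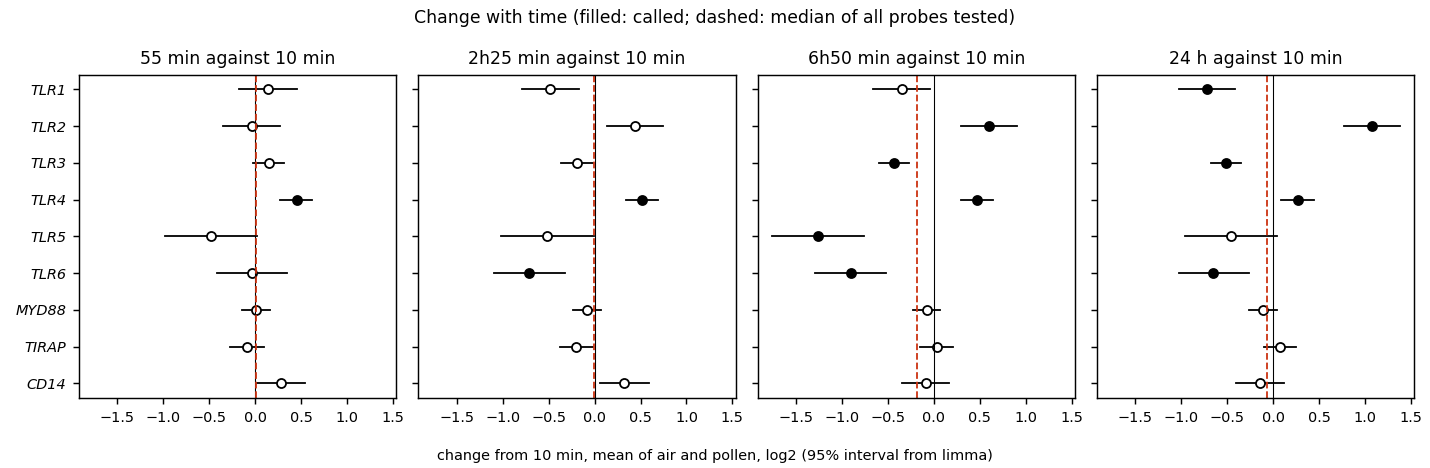
Change from 10 min in log2 (mean of air and pollen) for 9 genes at the 4 later times, with 95% limma intervals. Filled points passed the test, and the dashed red line is the median of all 32142 probes. TLR2 reaches 1.08 at 24 h, while TLR5 is lowest at 6h50 min with -1.26.

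TLR2 rose the most. In air it read -2.18, -2.52 and -2.85 at 10 min and -1.66, -1.59 and -1.46 at 24 h, and in pollen -2.30, -2.60 and -2.89 at 10 min and -1.42, -1.52 and -1.26 at 24 h. All 24 h arrays lay above all 10 min arrays in both exposures, with a change of 0.95 in air and 1.20 in pollen. The joint change was -0.04 at 55 min, 0.44 at 2h25 min (adjusted p 0.0726), 0.60 ± 0.15 (SE) at 6h50 min (adjusted p 0.00184) and 1.08 ± 0.15 at 24 h (adjusted p 3.26e-06), all in limma. The last is 2.11-fold, with an interval of 0.77 to 1.38.

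Over 11 other settings the TLR2 change at 24 h lay between 1.01 and 1.26 and passed in 10, the exception being slide as a block, which gave 1.13 with an adjusted p of 0.138 in limma. Within slide 2 TLR2 was higher at 2h25 min than at 55 min by 0.47, and within slide 4 higher at 24 h than at 2h25 min by 0.74. On slide 1 the single air array of 55 min differed from the 3 air arrays of 10 min by -0.10. The TLR2 probe lies at chr4:154626406-154626465 on the plus strand of hg19.

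TLR4 rose early. Probe 1 read -0.65, -0.67 and -0.72 in air at 10 min and -0.39, -0.21 and -0.26 at 55 min, and in pollen -0.85, -0.59 and -0.70 at 10 min and -0.03, -0.36 and -0.25 at 55 min. All 6 arrays of 55 min were above all 6 of 10 min. The joint change was 0.45 ± 0.08 (SE) at 55 min, 1.36-fold with an adjusted p of 0.00395, and 0.52, 0.47 and 0.27 at the later times, with adjusted p 0.000948, 8.12e-05 and 0.00989 in limma. At 55 min it did not pass with the percentile over all probes of an array (0.22, adjusted p 0.325 in limma). In the deposited table it gave 0.15, 0.52, 0.41 and 0.28 and passed at no time (adjusted p 0.0505 to 0.589 in limma).

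The 2 TLR4 probes agreed at first and parted later. Probe 2 rose by 0.39 at 55 min (adjusted p 0.0178) and 0.40 at 2h25 min (adjusted p 0.00908), but it changed by -0.14 at 6h50 min and 0.05 at 24 h, with adjusted p 0.179 and 0.644 in limma. A later rise of TLR4 therefore rests on probe 1. With the percentile over all probes, the replicate block, slide as a block or the deposited table, neither rise of probe 2 passed. The deposited table gave 0.00 at 55 min and 0.39 at 2h25 min, and the replicate block adjusted p 0.103 and 0.0548 in limma. Within slides, probe 1 gave 0.29 for the single air array of 55 min on slide 1, 0.17 from 55 min to 2h25 min on slide 2 and -0.10 from 2h25 min to 24 h on slide 4. With slide as a block its change was 0.28, 0.44 and 0.35 at 55 min, 2h25 min and 24 h, with adjusted p from 0.399 to 1 in limma.

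TLR3, the endosomal receptor of double-stranded RNA, fell at the late times. It read -1.05, -0.99 and -1.22 in air at 10 min, -1.57, -1.53 and -1.49 at 6h50 min and -1.73, -1.58 and -1.56 at 24 h. In pollen it read -0.98, -1.06 and -1.09 at 10 min, -1.43, -1.48 and -1.50 at 6h50 min and -1.64, -1.61 and -1.35 at 24 h. The late arrays were all below the 10 min arrays, and air and pollen moved by like amounts, -0.53 and -0.49 at 24 h. The joint change was -0.43 ± 0.08 (SE) at 6h50 min, 1.35-fold lower with an adjusted p of 0.000123, and -0.51 at 24 h, 1.43-fold lower with an adjusted p of 1.66e-05 in limma. This fall depended on the scaling and the slide, and it did not pass in 3 of 10 other settings at 6h50 min and 2 of 11 at 24 h. At 6h50 min it was -0.17 with median scaling (adjusted p 0.193 in limma), and at 24 h it was -0.07 with slide as a block (adjusted p 0.905). Within slides TLR3 gave 0.39 for the single air array of 55 min, -0.19 from 55 min to 2h25 min and -0.26 from 2h25 min to 24 h.

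TLR1 and TLR6 read lower at late times, but close to the background, so their values there bound the change poorly. Both entered the test through other groups, in which they were brighter. This favoured a lower call near the background in advance, so such a call is no support for a fall. TLR1 was well above background on 3 of 6 arrays at 24 h. Its measured change was -0.72 at 24 h, with an adjusted p of 0.000399 in limma, while -0.48 at 2h25 min and -0.35 at 6h50 min did not pass. The 24 h value was -1.14 in air and -0.31 in pollen. Over 10 other settings it lay between -0.88 and -0.14, and with slide as a block the adjusted p was 0.267 in limma. With normexp and quantile normalization TLR1 reversed at 6h50 min to 0.15 (adjusted p 0.0179).

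TLR6 was well above background on 2 of 6 arrays at 6h50 min and on 2 of 6 at 24 h. It read -5.38, -5.62 and -5.74 in air at 10 min and -6.47, -6.38 and -6.48 at 6h50 min, where 1 of these 3 arrays was well above background. Its measured change was -0.71, -0.90 and -0.65 at 2h25 min, 6h50 min and 24 h, with adjusted p 0.0226, 0.000319 and 0.00562 in limma. These calls were not stable. At 2h25 min TLR6 passed in 4 of 10 other settings and with 7 of 12 arrays left out, the arrays without which it did not pass being air array 1, pollen array 1 and pollen array 3 of 10 min, air array 1 and pollen array 2 of 2h25 min. At 6h50 min it passed in 7 of 9 settings, with -0.09 under normexp and -0.11 in the deposited table. At 24 h it passed in 6 of 10, with -0.12 under normexp, -0.19 in the deposited table and -0.47 with median scaling. From 55 min to 2h25 min on slide 2, TLR1 differed by -0.72 and TLR6 by -0.58. From 2h25 min to 24 h on slide 4 they differed by -0.25 and -0.04.

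TLR5 had its lowest level at 6h50 min. Probe 1 read -3.61, -3.84 and -3.39 in air at 10 min, -4.51, -4.82 and -4.59 at 6h50 min and -4.18, -4.13 and -4.00 at 24 h. In pollen it read -3.29, -3.77 and -3.49 at 10 min, -4.95, -5.16 and -4.93 at 6h50 min and -4.31, -3.51 and -4.07 at 24 h. The joint change at 6h50 min was -1.26 ± 0.24 (SE), 2.39-fold lower with an adjusted p of 0.000163 in limma, and -0.46 at 24 h with an adjusted p of 0.112. Over 10 other settings the 6h50 min change passed each time, but its size ran from -1.28 to -0.38, the smallest under normexp and quantile normalization.

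Probe 2 of TLR5 ran differently. It changed by -0.57, -0.59 and -1.02 at 2h25 min, 6h50 min and 24 h, with adjusted p 0.027, 0.00293 and 1.11e-05 in limma, and so was lowest at 24 h rather than at 6h50 min. At 2h25 min it passed in 4 of 10 other settings (replicate block adjusted p 0.115 in limma) and with 6 of 12 arrays left out. At 6h50 min it passed in 5 of 9, with -0.01 under normexp and 0.03 in the deposited table. In air at 24 h it was not well above background on any array, so its value there bounds the change poorly. It entered the test through earlier groups, so its call at 24 h is no support for a fall either. The probes lie at chr1:223305827-223305886 and chr1:223284067-223284126 on the minus strand of hg19. Within slide 2 the change from 55 min to 2h25 min was -0.32 in probe 1 and -0.91 in probe 2, and within slide 4 from 2h25 min to 24 h it was 0.02 and -0.71.

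In the main fit MYD88 and TIRAP probe 1 moved little by comparison. MYD88 changed by 0.01, -0.08, -0.08 and -0.11 at the 4 later times, and its adjusted p lay between 0.218 and 0.969 in limma. With normexp and quantile normalization it passed as lower at 24 h (-0.15). TIRAP probe 1 changed by -0.09, -0.20, 0.03 and 0.07, and none of these passed. It passed as higher at 6h50 min and 24 h with median scaling (0.29 and 0.25) and with normexp and quantile normalization (0.22 and 0.17). At 6h50 min TIRAP probes 2 and 3 changed by 0.10 and 0.32 and did not pass either. With normexp, median scaling and the deposited table both passed as higher then. Probe 2 gave 0.27, 0.37 and 0.41, and probe 3 gave 0.32, 0.59 and 0.48, in that order. TIRAP probe 2 fell by 0.63 on the log2 scale at 24 h, with an adjusted p of 0.000326 in limma, so the probes of this gene differed too. That fall did not pass with slide as a block (-0.09), with normexp and quantile normalization (-0.12) or in the deposited table (-0.19). CD14 changed by 0.28, 0.32, -0.09 and -0.14, none of which passed. From 55 min to 2h25 min on slide 2, MYD88 differed by -0.07 and CD14 by 0.05. TIRAP differed there by -0.08 in probe 1 and -0.02 in probe 2. From 2h25 min to 24 h on slide 4, MYD88 differed by -0.03 and CD14 by -0.60. TIRAP differed there by 0.35 in probe 1 and -0.46 in probe 2. By exposure, CD14 changed by -0.42 in air and 0.25 in pollen from 10 min to 6h50 min, and the test of that contrast is given above.

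The wider pathway was followed with a list of 43 further genes (other receptors, ligands, chaperones, adaptors, kinases and ligases, inhibitors and transcription factors), of which 42 were on the array and 37 were tested. TLR7, TLR8, TLR10 and CD180 were well above background on 0 arrays. Between pollen and air, 0 of 37 genes passed at any time in limma, as did at most 0.0436% of all probes. The unadjusted p was under 0.05 for 0, 2, 2, 2 and 1 genes, against 1.83%, 5.09%, 2.98%, 7.44% and 3.61% of all probes. The median difference of the 37 genes lay between -0.01 and 0.02. Values with the lowest p included TLR9, an endosomal DNA receptor, at 55 min (-1.41, adjusted p 0.918) and IRF3, a factor of the interferon response, at 6h50 min (0.42, adjusted p 0.501). TLR9 was well above background on 19 arrays only, and its pollen mean at 55 min, -7.56, was close to the background.

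Against 10 min, 1 of the 37 pathway genes was higher and 0 lower at 55 min, and 3 higher and 0 lower at 2h25 min, namely IRAK2, SARM1 and TOLLIP. Of all probes, 2.17% were higher and 1.28% lower at 55 min, and 3.57% and 4.16% at 2h25 min. At 6h50 min 13 of the 37 genes were higher and 11 lower, and at 24 h 12 and 10. These shares were near the 59.5% and 52.9% of all probes that passed at these times. The median change lay between 0.02 and 0.05 at the 4 times, against -0.18 to 0.01 over all probes. Both inhibitors on the list were higher at 6h50 min and 24 h, as were 20.0% and 23.6% of all probes, and for 6h50 min time and slide cannot be told apart. TOLLIP, which restrains IRAK signalling, rose by 0.99 at 6h50 min (1.98-fold, adjusted p 1.04e-08 in limma) and 0.61 at 24 h. The 2 adaptors tested rose as well, TICAM1 by 0.55 at 6h50 min and SARM1 by 0.79 at 24 h.

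All 3 ligand genes were lower at 6h50 min and 2 of them at 24 h, against 39.4% and 29.3% of all probes. S100A8 and S100A9, calcium-binding proteins that form a ligand of TLR4, changed by -2.01 and -1.52 at 6h50 min and by -2.57 and -1.95 at 24 h. Of 20 kinases and ligases, 7 rose and 5 fell at 6h50 min, and 6 rose and 7 fell at 24 h, again near the 59.5% and 52.9% of all probes. IRAK2 rose by 0.77 and IRAK4, the kinase next to MYD88, changed by -0.58 at 6h50 min. IRAK1 rose by 0.66 at 24 h, and IKBKE, a kinase that acts on interferon regulatory factors, changed by -1.82. IKBKE was well above background on 26 arrays, and its means at 24 h, -7.62 in air and -7.42 in pollen, were close to the background. Of 3 transcription factors 2 rose at both times, IRF5 by 0.88 at 6h50 min.

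The genes whose pattern over the 10 group means was most like that of a member were found by Pearson's r among 14924 gene names, as a description. For TLR2 they were RSU1 (r = 0.979), ITGB1BP1 (0.974) and DIS3L2 (0.971), and for TLR3 PDE4B (0.985) and GYS1 (0.984). For TLR4 they were RC3H1 (0.947), HBEGF (0.922) and DLC1 (0.917), and for TLR5 SPRR2D (0.987) and COL27A1 (0.986). MYD88 was most like SERINC5 (0.936), and CD14 most like GPC6 (0.968), RNF130 (0.929) and CYP1B1 (0.928). With 10 points that share arrays and slides, high values are common.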

How the data were processed

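BEAS-2B RNA from 30 samples exposed to air or pollen was labelled with Cy3 and hybridised to one-colour Agilent arrays. The scanner intensity files, deposited as text, came from Agilent Feature Extraction 11.0.1.1 per the labels, whose processed signal is background-subtracted intensity. A table of log2 values by the authors was deposited too, whose scaling is not given in the sources used here and which served as an alternative. Groups came from the sample labels, and 0 measurement columns lacked a sample.

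Control spots and spots marked uneven or as outliers were left out, spots of a probe were averaged, and log2 values were set relative to the 75th percentile of the 33873 probes that both designs hold. Probes that in any group exceeded the background well on its 3 arrays entered limma 3.58.1 in R 4.3.3 (lmFit, eBayes, Benjamini-Hochberg over 32142 probes) in 1 fit of the 10 groups, with 20 residual and 2.34 prior degrees of freedom. A probe passed at an adjusted p of 0.05 and 1.1-fold. The number of arrays limits the precision. The steps were tested on simulated data.

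The members, gene lists and tests were chosen with earlier results of these data known. Genes named were all members, pathway genes among those that passed or had the lowest p, and the genes most like a member by Pearson's r. The alternatives were other background corrections, scalings and filters, kept spots, the replicate block, slide, array weights, dim areas, the deposited table and leaving out each array. Sequences came from the array files and from RefSeq (GRCh38.p14), where 7 members had an upstream window.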

Additional observations from a re-analysis of the deposited data

How the results depend on the processing

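For pollen against air, 0 of 9 genes passed at 10 min, 55 min, 2h25 min and 24 h under the settings run. At 6h50 min 1 (CD14) passed with the replicate block and 1 with array weights. Of all probes 135 and 530 passed there, against 14 in the main fit. With each array left out in turn the count stayed between 0 and 0 at all 5 times, and the contrasts of the pollen effect between times gave 0 throughout. Over all probes, leaving out an array gave 0 to 507 for pollen against air at 6h50 min, against 14 in the main fit. For the change of the pollen effect from 10 min to 6h50 min it gave 0 to 224, against 0 in the main fit. The methods state a mock control in each run, but the labels do not say that a replicate number marks a run. Of 15 same-numbered pairs 12 correlated over 0.1 and 14 best with their own number (range -0.12 to 0.52), and at 6h50 min, where the block makes CD14 pass, the 3 correlations were 0.05, 0.12 and 0.05. The replicate block, as a random block (consensus correlation 0.34) for changes with time, changed no count but that at 2h25 min.

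Against 10 min, the count at 55 min (1) was 0 with the percentile over all probes of an array, slide as a block or the deposited table, and 1 to 1 with an array left out. At 2h25 min (2) it was 1 with that percentile, median scaling, the stricter filter (7 genes tested) or the replicate block, 0 with slide as a block or the deposited table, 7 with array weights, and 1 to 4 with an array left out (4 without air array 2 of 2h25 min, 1 without pollen array 1 or 3 of 10 min). At 6h50 min (5) it was 2 with the deposited table and 5 to 6 with an array left out, and no slide block could be fitted. At 24 h (5) it was 3 with the stricter filter, 0 with slide as a block, 2 with the deposited table, and 5 to 5 with an array left out. TLR1 at 6h50 min reversed from -0.35 to 0.15 with normexp and quantile normalization, and TLR5 probe 2 from -0.59 to 0.03 with the deposited table. In all, 126 of 142 counts under other settings and 123 of 126 with an array left out stayed within 1.5-fold. These totals include all pollen contrasts, whose main count was 0 and for which 0 against 0 was taken as unchanged. The counts that moved were those named above, and apart from CD14 at 6h50 min all were against 10 min. Apart from fewer genes in the stricter filter, the cause was not tested. Of the deposited columns, 24 of 30 matched their own array and 6, all at 24 h, another array of the same group.

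Over all probes, the number that passed against 10 min ranged over other settings from 10 to 6022 at 55 min (main value 1107), from 4 to 4736 at 2h25 min (2485), from 11840 to 20719 at 6h50 min (19116) and from 1801 to 19168 at 24 h (16999). Between pollen and air it ranged from 0 to 1 at 10 min, 0 to 241 at 55 min, 2 to 44 at 2h25 min, 3 to 530 at 6h50 min and 0 to 105 at 24 h. TLR1, TLR6, LY96 and probe 2 of TLR5 lay near the background, where brightness understates a change.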
